A study of Bos taurus with 30 samples.

Results

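The genes described here are *TXNIP* (ENSBTAG00000020060), *HIF3A* (ENSBTAG00000018948) and *CIART* (ENSBTAG00000021487), 3 of the 27607 genes in the table, measured by mRNA sequencing of bovine anterior pituitary. They were taken by identifier from the list of genes that the study gave as different between diets, all on the side of lower expression with more feed. The contrast between diets therefore chose them. It is described without a p-value, and whether the genes passed a threshold between diets is given only as a description. The spread between calves of a diet also entered that choice. What was tested is how the 3 genes varied together across calves of the same diet.

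The tissue came from 30 Holstein-Friesian bull calves, each giving a single poly(A) RNA library. From 2 weeks of age, 15 calves were placed on a high plane of nutrition (HI), a daily 10 litres of milk made from 1.5 kg of replacer, with concentrate without limit. The other 15 were placed on a moderate plane (MOD), a daily 4 litres made from 0.5 kg of replacer, with concentrate held to 0.5 kg, and hay and water were given to both groups. Tissue was taken at 12 weeks of age, and the clock time of collection is not given in the sources used here. The whole anterior lobe is a mixture of hormone-secreting, folliculostellate, vascular and stromal cells, so fewer cells of a type and less RNA per cell cannot be told apart in any value given here. Because the table pairs no identifiers with names, the markers of these cells were not analysed here.

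The proteins have separate roles. *TXNIP* encodes thioredoxin-interacting protein, an arrestin-like protein that binds thioredoxin and restrains glucose uptake, and its transcription is known to follow intracellular glucose through the MondoA and ChREBP factors. *HIF3A* encodes an alpha subunit of the hypoxia-inducible factors, basic helix-loop-helix PAS proteins that are degraded when oxygen is plentiful, and some of its splice forms restrain the other alpha subunits. *CIART*, also called CHRONO, encodes a repressor of the circadian clock that binds the CLOCK and ARNTL (BMAL1) activators and is itself transcribed in a daily rhythm. In the RefSeq annotation of assembly ARS-UCD2.0, *TXNIP* and *CIART* lie on the same chromosome with 28 protein-coding genes between them, and *HIF3A* lies on another. The reads were aligned to ARS-UCD1.2, so no coordinates are given. Neither coding nor promoter sequences of the genes were used here.

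Levels are normalised CPM (counts-per-million, with reads divided by an effective library size), and means are given ± SD over the 15 calves of a diet. Whole reads could be recovered from them, and library totals ran from 14.7 to 26.9 M reads. A library of the HI group, replicate 3, stood apart from the rest. Its scaling factor was 0.510, against 0.894 to 1.15 in the other libraries, and 16940 of the genes had at least 1 read in it, against 18317 to 18975. Values without it are given beside the levels, fold changes, calls and correlations. Left out, it moved the HI means to 302 ± 64.4 for *TXNIP*, 27.4 ± 10.4 for *HIF3A* and 2.49 ± 0.963 for *CIART* (n = 14).

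*TXNIP* was an abundant transcript, with a mean over all calves above that of 98.6% of the 14290 genes tested. In HI its level was lowest at 211 normalised CPM, had a median of 296 and was highest at 479. In MOD the lowest level was 246, the median 455 and the highest 787. Of the HI calves, 14 of 15 lay between 211 and 346, below the highest at 479. The MOD calves spread more widely, both below and above their median. Mean levels were 296 ± 66.3 (HI) and 464 ± 149 (MOD), so that the MOD mean was 1.57 times the HI mean. On the scale of log2(normalised CPM + 1), the difference of HI from MOD was -0.61 ± 0.13 (SE of the limma fit). The values rested on 2581 to 21944 reads per library. The fewest reads and the lowest level were both in HI replicate 3.

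*HIF3A* displayed a MOD mean 1.91 times that of HI. In HI its level was lowest at 11.4 normalised CPM, had a median of 27.2 and was highest at 52.2. In MOD the corresponding levels were 19.1, 46.6 and 101. Apart from 1 MOD calf at 19.1 normalised CPM, the MOD calves began at 33.1, a level that 12 of 15 HI calves did not reach. Means were 27.3 ± 10.0 (HI) and 52.1 ± 19.1 (MOD). The log2 difference of HI from MOD was -0.90 ± 0.19 (SE). Each value rested on 268 to 2906 reads.

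*CIART* was a scarce transcript, with a mean above that of 12.3% of the genes tested and 24 to 164 reads per library. In HI its level was lowest at 1.19 normalised CPM, had a median of 2.38 and was highest at 4.33. In MOD the lowest level was 2.13, the median 4.36 and the highest 6.29. All 15 HI calves lay below the MOD median, and 5 of them lay below the lowest MOD calf. Means were 2.47 ± 0.929 (HI) and 4.35 ± 1.08 (MOD), the latter 1.76 times the former. The log2 difference was -0.64 ± 0.13 (SE), and it was -0.83 ± 0.17 with a pseudocount of 0.1, since adding 1 compresses differences at such low levels.

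**Figure D1:**
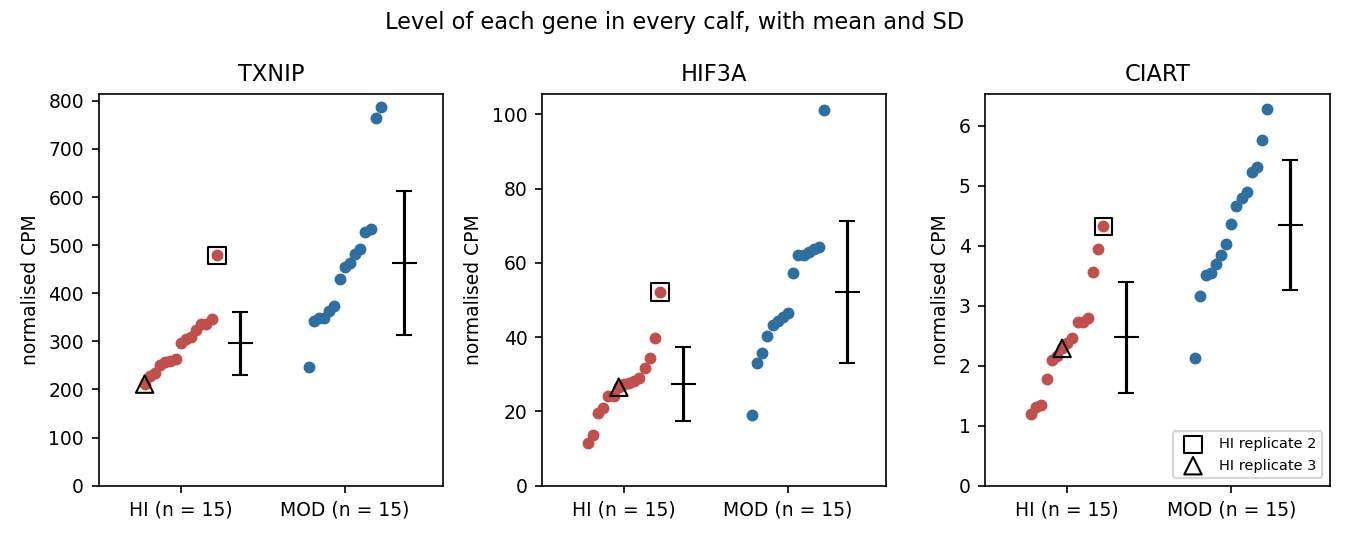
Level of *TXNIP*, *HIF3A* and *CIART* in normalised CPM (vertical axes, starting at 0) in each of 15 HI (red) and 15 MOD (blue) calves, sorted within diet, with the mean and SD as black bars. HI replicate 2 (square) is the highest HI calf for all 3 genes, at 479, 52.2 and 4.33 normalised CPM, whereas HI replicate 3 (triangle) is the lowest for *TXNIP* and lies near the HI median for the other genes.

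The ranges of the diets overlapped for all 3 genes, as they did for every gene tested (0% of 14290 genes had ranges that did not overlap). A calf drawn from HI was below a calf drawn from MOD in 90.7% of the 225 pairs of calves for *TXNIP*, 89.8% for *HIF3A* and 89.3% for *CIART*. These shares were 90.0%, 89.5% and 89.0% without HI replicate 3. HI calves below the MOD median numbered 14, 14 and 15 of 15. Over all genes, 1.04% had at least 14 HI calves below the MOD median and 0.217% had 15, but these genes were chosen for that direction and nothing is read from the comparison. A single MOD calf was below the HI median for each gene, and it was MOD replicate 12 for *TXNIP* and MOD replicate 5 for both *HIF3A* and *CIART*.

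Much of the overlap came from HI replicate 2. This calf was the highest of HI for *TXNIP* (479 normalised CPM, against 346 in the next HI calf), for *HIF3A* (52.2 against 39.8) and for *CIART* (4.33 against 3.95). When it was left out, the number of MOD calves above every HI calf went from 6 to 13 of 15 for *TXNIP* and from 7 to 12 for *HIF3A*. For *CIART* the number moved only from 8 to 9. Such numbers depend on the highest HI calf alone. The share of pairs with the HI calf below the MOD calf was then 94.3% for *TXNIP*, 92.9% for *HIF3A* and 91.9% for *CIART*. MOD replicates 12 and 5 also lay in the overlap, and shares without them were not computed. The total of HI replicate 2 (23.9 M reads), its scaling factor (0.997) and the 18845 genes with a read were within the range of the other libraries.

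A gene was called at a fold change over 1.5 together with a Benjamini-Hochberg adjusted p below 0.1. In the limma fit across all genes, 0 of the 3 genes were called on all 30 libraries. The fit called 0% of the 14290 genes as lower in HI. An unadjusted p under 0.05 was found in limma for 933 genes. That share is only a little above the 0.05 that arises on average without differences. In limma without HI replicate 3 the number was 1477. On all 30 libraries it was 1287 in edgeR's quasi-likelihood test, 1231 in the DESeq2 Wald test and 900 in limma-voom. The counts of the 3 genes called were also 0 in edgeR's quasi-likelihood test, which called 0% of genes lower in HI, and in limma-voom, which also called 0%, and 3 in the DESeq2 Wald test, where 0.0700% of genes were called lower in HI. These calls repeat the contrast that chose the genes and are given only to show where the thresholds fall.

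Leaving out a single library moved the genes across those thresholds. Without HI replicate 3, limma called *HIF3A* and *CIART*, with 0.0490% of all genes called lower in HI, and not *TXNIP*, whose fold of 1.495 was under the minimum of 1.5. Without HI replicate 2 all 3 were called (0.0420% of genes). Without MOD replicate 5 *HIF3A* and *CIART* were called (0.0140% of genes), without MOD replicate 12 *TXNIP* alone (0.00700%), and without HI replicate 7 or HI replicate 13 *CIART* alone (0.00700% each). The other 24 of 30 such limma fits called 0 of the 3 genes. With HI replicates 2 and 3 both left out, limma called all 3 (0.0770% of genes), and so did edgeR's quasi-likelihood test without HI replicate 3 (0.0490%).

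The size of the difference was steadier than the calls. Without HI replicate 3 the log2 difference of HI from MOD was -0.58 ± 0.13 for *TXNIP*, -0.91 ± 0.19 for *HIF3A* and -0.64 ± 0.13 for *CIART* (SE). Over all fits that left out a library it ran from -0.67 to -0.55 for *TXNIP*, from -0.996 to -0.823 for *HIF3A* and from -0.69 to -0.60 for *CIART*. Sample titles carry a number whose digits at positions 2 and 3 fall into 4 series of unstated meaning, and the largest, series 78, holds 8 HI and 8 MOD calves, among them HI replicates 2 and 3. Within series 78 alone the log2 differences were -0.62 ± 0.17, -0.86 ± 0.29 and -0.61 ± 0.20 (SE) in the same order. With HI replicate 3 also left out they were -0.55 ± 0.15, -0.86 ± 0.30 and -0.61 ± 0.20.

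**Figure D2:**
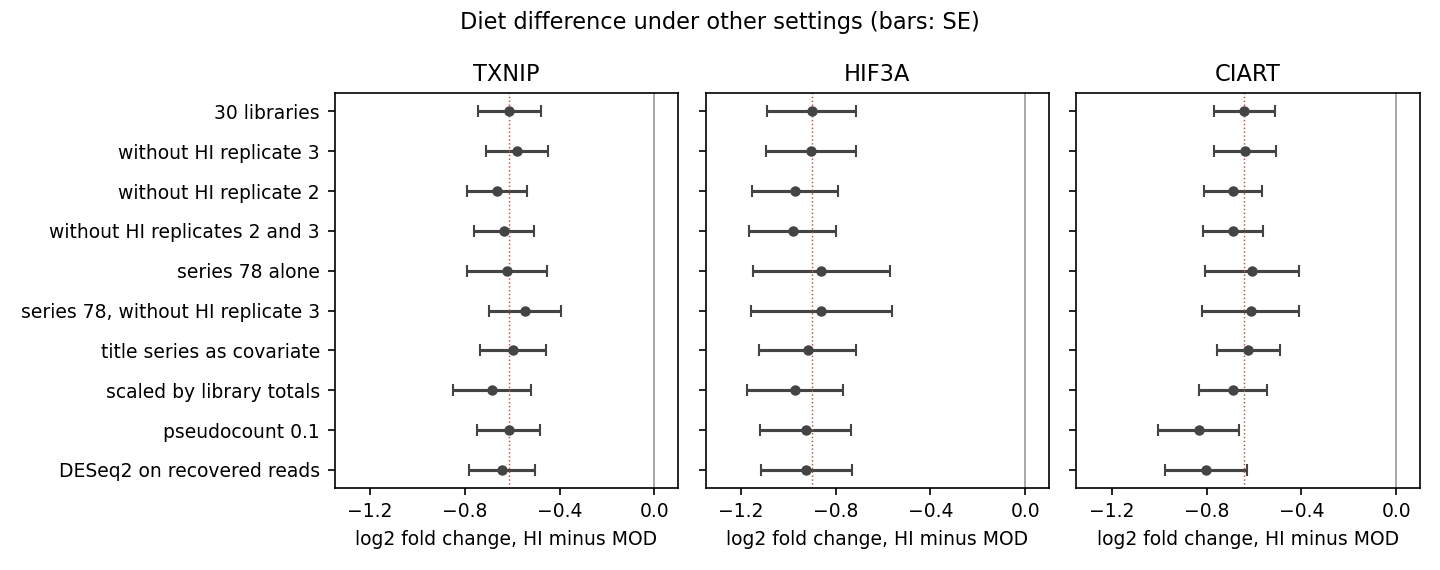
Log2 fold change of HI minus MOD (horizontal axes) for each gene under 10 settings (rows), with SE as bars, a grey line at 0 and a dotted line at the value from all 30 libraries. Every point lies below 0, from -0.69 to -0.55 for *TXNIP*, from -0.98 to -0.86 for *HIF3A* and from -0.83 to -0.61 for *CIART*.

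No difference between title series was detected for these genes. Given diet, the moderated F test of series in limma gave Benjamini-Hochberg adjusted p of 1.00 for each of the 3 genes, and unadjusted p of 0.497 for *TXNIP*, 0.970 for *HIF3A* and 0.397 for *CIART*. Of all genes, 0 had an adjusted p under 0.1 in this limma test and 137 an unadjusted p under 0.05, a count that was 334 without HI replicate 3. Both counts are below a share of 0.05 of the 14290 genes, the share that arises on average without differences. The test may thus have been conservative, and it does not show that the series were alike.

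Calves of the same diet differed well beyond the error of counting for *TXNIP* and *HIF3A*. The coefficient of variation of *TXNIP* was 22.4% in HI and 32.2% in MOD, where the sampling of reads alone gives 1.31% and 1.05%. For *HIF3A* it was 36.7% in each diet, against 4.50% and 3.24% from sampling. *CIART* varied by 37.6% in HI and 24.9% in MOD, of which sampling gives 15.1% and 10.8%, so that counting accounted for 16.1% and 18.7% of its variance. Sampling intervals cover counting error only. With diet removed, the SD on the log2 scale was 0.38 for *TXNIP*, 0.54 for *HIF3A* and 0.35 for *CIART*, larger than that of 60.1%, 82.1% and 54.7% of the genes tested. These shares were 82.9%, 95.2% and 80.5% without HI replicate 3. The spread of each gene bore on its being listed, so these shares are a description.

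Whether the genes rose and fell together across calves was then asked from the deviations of each calf from the mean of its diet, for the 3 pairs over 30 calves. For *TXNIP* with *HIF3A*, Pearson's r was 0.407 (permutation p = 0.0299, adjusted over the 3 pairs p = 0.0605) while Spearman's rho was 0.243 (permutation p = 0.209). *HIF3A* with *CIART* gave an r of 0.383 (permutation p = 0.0403, adjusted p = 0.0605) and a rho of 0.314 (permutation p = 0.0955). *TXNIP* with *CIART* gave an r of -0.134 (permutation p = 0.468, adjusted p = 0.468) and a rho of -0.247 (permutation p = 0.191). Adjusted over the 3 pairs, the p of each rho was 0.209. No pair passed an adjusted p of 0.05, although *HIF3A* had a positive r with both of the other genes. Within series 78 alone, over 16 calves, r was 0.561, 0.510 and 0.195 in this order (adjusted permutation p of 0.0586, 0.0586 and 0.490). With title series as a covariate over all 30 calves, r was 0.415 for *TXNIP* with *HIF3A* and 0.408 for *HIF3A* with *CIART* (adjusted permutation p of 0.0388 each). For *TXNIP* with *CIART* it was -0.0917 (adjusted permutation p = 0.616). These permutations shuffled values from which series had been removed and did not remove it again. Their p is therefore too small, and whether the relations of *HIF3A* pass given series cannot be read from it.

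The values also moved with the calves included, and of the 2 positive ones *HIF3A* with *CIART* moved the further towards 0. Without the 2 calves farthest from the median of the first gene, r was 0.387 for *TXNIP* with *HIF3A* (permutation p = 0.0481, adjusted p = 0.144), -0.110 for *TXNIP* with *CIART* (permutation p = 0.573, adjusted p = 0.573) and 0.262 for *HIF3A* with *CIART* (permutation p = 0.194, adjusted p = 0.291). Leaving out HI replicate 3 left them at 0.422, -0.142 and 0.384 (adjusted permutation p of 0.0671, 0.443 and 0.0671). Without HI replicate 2, the calf highest of its diet for all 3 genes, they were 0.313, -0.319 and 0.287 (adjusted permutation p of 0.132 for each). Without MOD replicate 5, the lowest MOD calf for both *HIF3A* and *CIART*, the r of those genes was 0.231, whereas *TXNIP* with *HIF3A* passed at 0.451 (adjusted permutation p = 0.0384). Both relations of *HIF3A* also passed when HI replicate 8 or MOD replicate 1, 10 or 11 was left out, with r of 0.405 to 0.416 for *TXNIP* with *HIF3A* and of 0.403 to 0.412 for *HIF3A* with *CIART* (adjusted permutation p of 0.0484, 0.0471, 0.0495 and 0.0481 for those calves in turn). Hence an adjusted p of 0.05 was passed in 5 of 30 such fits by *TXNIP* with *HIF3A*, in 4 by *HIF3A* with *CIART* and in 0 by *TXNIP* with *CIART*. With HI replicate 2 and MOD replicate 5 both left out, a choice made after these calves had been seen, *HIF3A* with *CIART* gave 0.0742 (permutation p = 0.725), *TXNIP* with *HIF3A* 0.350 (permutation p = 0.0636) and *TXNIP* with *CIART* -0.369 (permutation p = 0.0318), with adjusted p of 0.725, 0.0954 and 0.0954.

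**Figure D3:**
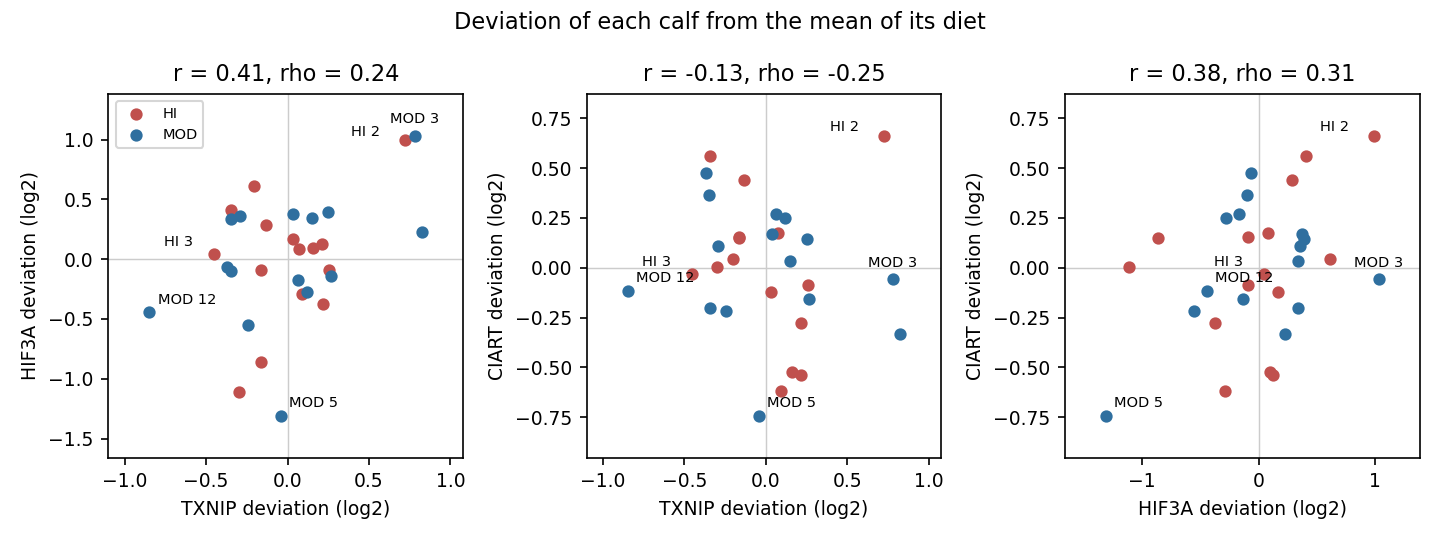
Deviation of each of 30 calves from the mean of its diet, in log2(normalised CPM + 1), for the 3 pairs of genes, with HI calves in red and MOD calves in blue. HI replicate 2 is at the upper right in every panel and MOD replicate 5 at the lower left of *HIF3A* with *CIART* (r = 0.383), while *TXNIP* with *CIART* shows no rising trend (r = -0.134).

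The same pairs were examined within each diet, as 6 tests over 15 calves each. *TXNIP* with *HIF3A* gave an r of 0.366 in HI and 0.444 in MOD (permutation p of 0.179 and 0.0954), with rho of 0.0821 and 0.357 (permutation p of 0.772 and 0.191). *HIF3A* with *CIART* gave an r of 0.373 and 0.402 (permutation p of 0.170 and 0.136), with rho of 0.396 and 0.243 (permutation p of 0.144 and 0.382). *TXNIP* with *CIART* gave an r of -0.0905 and -0.182 (permutation p of 0.752 and 0.512), with rho of -0.293 and -0.250 (permutation p of 0.286 and 0.367). Adjusted over the 6 tests, the lowest p of r was 0.268. In the same order, the r in HI were 0.414, 0.373 and -0.110 without HI replicate 3. The difference of r between diets, HI minus MOD, was -0.0785, -0.0294 and 0.0919, with an adjusted permutation p of 0.945 for each pair. Without HI replicate 2 these differences were -0.418, -0.237 and -0.446 (adjusted permutation p of 0.382, 0.679 and 0.313).

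Leaving out HI replicate 2 gave the lowest r within HI for every pair among the 15 calves left out in turn. Without it, *HIF3A* with *CIART* gave an r of 0.165 (permutation p = 0.572, adjusted p = 0.686), *TXNIP* with *CIART* gave an r of -0.629 (permutation p = 0.0162, adjusted p = 0.0975) and *TXNIP* with *HIF3A* an r of 0.0257 (permutation p = 0.929, adjusted p = 0.929). Without HI replicates 2 and 3, the HI calves farthest from the *TXNIP* median, *TXNIP* with *CIART* gave -0.720 and *TXNIP* with *HIF3A* gave 0.0710 (permutation p of 0.00700 and 0.815, adjusted p of 0.0352 and 0.953). Without HI replicates 12 and 10, the farthest for *HIF3A*, *HIF3A* with *CIART* gave 0.668 (permutation p = 0.0117, adjusted p = 0.0352). Without the 2 farthest MOD calves the values within MOD were 0.409 for *TXNIP* with *HIF3A*, -0.138 for *TXNIP* with *CIART* and 0.0180 for *HIF3A* with *CIART* (permutation p of 0.164, 0.641 and 0.953). For *HIF3A* with *CIART*, leaving out a pair of calves thus moved r from 0.373 to 0.668 in HI and from 0.402 to 0.0180 in MOD.

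Scaling by library totals, in place of the effective sizes, gave larger values of r. *TXNIP* with *HIF3A* was then at 0.530 and *HIF3A* with *CIART* at 0.499 (adjusted permutation p of 0.00645 and 0.00967), and *TXNIP* with *CIART* changed sign to 0.186 (adjusted permutation p = 0.336). Under totals, every level in HI replicate 3 is multiplied by its factor of 0.510, and the part of this library in these values was not tested. The reads of 2 genes within a library can be compared without any scaling. There were 94.0 ± 33.7 *HIF3A* reads for every 1000 *TXNIP* reads in HI against 117 ± 37.8 in MOD, and 8.77 ± 3.79 against 10.3 ± 4.22 *CIART* reads. For every 1000 *HIF3A* reads there were 99.3 ± 48.2 *CIART* reads in HI and 91.4 ± 30.4 in MOD. Since all 3 genes were chosen as lower in HI, nothing is read from how these ratios compare between diets.

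Relations of the 3 genes to total reads and to the share of reads taken by the 2 most abundant genes were computed from deviations from the diet means of 30 calves, 6 in all, and none passed an adjusted p of 0.05. The closest was *CIART* with the share of the abundant genes (r = -0.349, permutation p = 0.0663, rho = -0.328, permutation p = 0.0819), which had an adjusted p of 0.398. Its r was -0.380 without the 2 calves of most extreme share and -0.364 without HI replicate 3. The other 5 values of r lay between -0.224 and 0.189, with adjusted permutation p from 0.659 to 0.764. The part of this share in the results above was not tested.

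To place the genes among the others, the r of deviations from the diet means over 30 calves was computed against every gene tested. These values are given as a description with no p, since the closest genes are picked from 14289. The gene closest to *TXNIP* was ENSBTAG00000018252 (r = 0.719), and without HI replicate 3 its r was 0.717. The gene closest to *HIF3A* was ENSBTAG00000002382 (r = 0.687, and 0.688 without HI replicate 3). For *CIART* it was ENSBTAG00000019504 (r = 0.577, and 0.579 without that calf), and the table gives no names for these 3 identifiers. Without HI replicate 3 they ranked 2, 4 and 5 in likeness to *TXNIP*, *HIF3A* and *CIART*, so that they were the closest only with that calf included. Their own log2 differences of HI from MOD were -0.29 ± 0.08, -0.20 ± 0.09 and 0.00 ± 0.11 (SE), all smaller than those of the genes they followed. The next closest were ENSBTAG00000021999 for *TXNIP* (r = 0.656), ENSBTAG00000009362 for *HIF3A* (r = 0.663) and ENSBTAG00000011976 for *CIART* (r = 0.559), at ranks 7, 5 and 10 without that calf. Among the 14289 genes, *HIF3A* ranked 280 in likeness to *TXNIP* and *CIART* ranked 10790, and *TXNIP* ranked 134 and *CIART* 205 in likeness to *HIF3A*. Those ranks were 433, 9889, 272 and 445 without HI replicate 3.

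Of the 34 other genes on the study list, 33 were tested, and these too had been chosen on the same calves. *HIF3A* varied most like *SPP1*, which encodes the secreted matrix protein osteopontin (r = 0.582), and *WNT11*, a ligand of non-canonical Wnt signalling (r = 0.579). *SPP1* averaged 731 ± 211 normalised CPM (HI) and 1170 ± 337 (MOD), and *WNT11* 3.02 ± 2.37 and 4.26 ± 1.40. Without HI replicate 3 the r was 0.618 for *SPP1* and 0.711 for *WNT11*, which was then the closest of all genes to *HIF3A*. The next on the list was ENSBTAG00000048515 (r = 0.509). *HIF3A* varied least like *CARTPT*, the precursor of the CART neuropeptides (r = -0.554), and *MYH6*, a cardiac myosin heavy chain gene (r = -0.372), at -0.610 and -0.414 without HI replicate 3. Of the 10 list genes lower in HI, 9 had a positive r with *HIF3A*, with a median of 0.297 (0.343 without HI replicate 3). Of the 23 list genes higher in HI, 16 had a negative r, with a median of -0.201. Over all genes 47.7% had a positive r with *HIF3A*, and the median was -0.01.

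*CIART* shared that opposite partner, with an r of -0.538 with *CARTPT*, and its next lowest value was with *PTPN5*, a neuronal tyrosine phosphatase gene (r = -0.469). Without HI replicate 3 these were -0.578 and -0.472. *PTPN5* averaged 16.9 ± 5.86 normalised CPM (HI) and 26.5 ± 6.35 (MOD), so it was lower in HI as *CIART* was. Their r over deviations from the diet means was nevertheless negative. This r was picked as among the lowest of the list, was not computed within each diet and was not tested. The highest list genes for *CIART* were *RGS4*, a regulator of G protein signalling (r = 0.404), *SERTM1* (r = 0.332) and ENSBTAG00000051317 (r = 0.314). Of the 10 list genes lower in HI, 5 had a positive r with *CIART*, with a median of 0.01 (also 0.01 without HI replicate 3). Of the 23 higher in HI, 9 had a negative r, and their median was 0.165. Over all genes 50.2% had a positive r with *CIART*, and the median was 0.00.

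*TXNIP* varied most like ENSBTAG00000048515 (r = 0.430) and *ANGPTL7*, a secreted angiopoietin-like protein gene (r = 0.420). *ANGPTL7* was higher in HI on average, at 6.11 ± 12.6 normalised CPM against 1.83 ± 0.683 in MOD, and its r with *TXNIP* fell to 0.204 without HI replicate 2. The lowest were *CLEC2L*, a C-type lectin gene (r = -0.534, and -0.495 without HI replicate 3), and ENSBTAG00000051317 (r = -0.414). Of the 10 list genes lower in HI, 8 had a positive r with *TXNIP*, with a median of 0.172, and without HI replicate 3 the number was 9 with a median of 0.328. Of the 23 higher in HI, 13 had a negative r, with a median of -0.0187, and without that calf 15, with a median of -0.0693. Over all genes 51.2% had a positive r with *TXNIP*, and the median was 0.01.

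**Figure D4:**
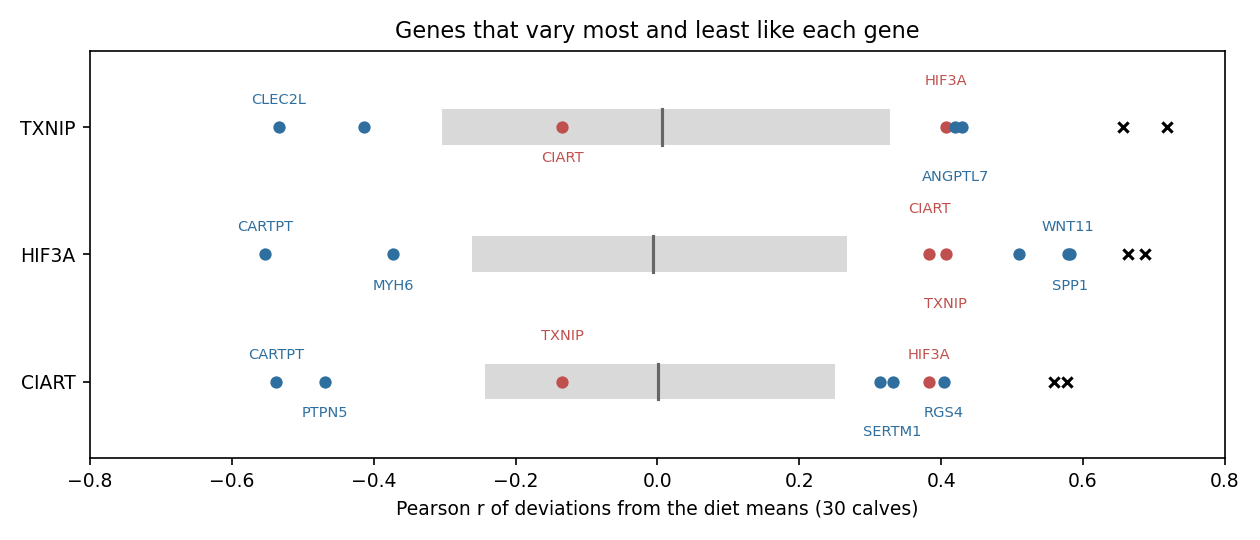
Pearson r (horizontal axis) of deviations from the diet means over 30 calves between each of the 3 genes (rows) and other genes. Grey bars span the middle 90% of all 14289 genes with a line at the median, crosses are the 2 closest of all genes, blue points are the highest (2 for *TXNIP*, 3 for the others) and 2 lowest of the study list (labelled where they have a symbol) and red points are the other members of the trio. *CIART* and *TXNIP* lie inside each other's grey bar (r = -0.134).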

How the data were processed

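Poly(A) RNA of each calf was made into a stranded library and sequenced as paired reads. The authors removed adapters with Cutadapt, aligned reads to ARS-UCD1.2 and counted them per gene with STAR. The deposited values are a signal, read counts that the authors divided by effective library sizes (normalised CPM). Of the 556895 nonzero values, 100% were within 0.01 of a whole number of reads, so reads were recovered, and the scaling factors matched edgeR's TMM factors within 4.46e-06. Totals of 14.7 to 26.9 M reads set the precision.

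Log2(value + 1) was tested in limma 3.58.1 (R 4.3.3, mean-variance trend, no covariate) for the 14290 genes whose value exceeded 1 in 15 or more libraries, with Benjamini-Hochberg adjustment. The 3 genes exceeded 1 in all 30 libraries. Recovered reads were tested in edgeR 4.0.16, DESeq2 1.42.0 and limma-voom. Other alternatives changed the scaling, filter or pseudocount, added title series or the first principal component, took series 78 alone or left out libraries. Correlations used 100000 permutations within diets (20000 for alternatives) in Python 3.11.15 with NumPy 2.4.6. Tests were two-sided, and *p*-values measure the spread between calves. In simulated reads for HI against MOD on 14290 genes, limma called 191 of 200 genes changed 2-fold and 1 unchanged gene. These reads had the same dispersion in every gene and no library that stood apart as HI replicate 3 does. The counts check the code and do not give the power of the fit on the real libraries.

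The genes and lists were chosen with earlier results of these data known. Named genes are the 3, and for each the 2 closest of all genes and the 3 highest and 2 lowest of the study list by r. A gene that this rule names is not reported here. Replicate numbers follow accession order, and the blocks of age, bodyweight, sire and farm are not labelled. Symbols come from the study. The reference table matched 0 Ensembl identifiers, so planned lists of clock, hypoxia, glucose-sensing and glucocorticoid genes, cell type markers and promoter motifs were not analysed here.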

Additional observations from a re-analysis of the deposited data

How the results depend on the processing

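The log2 difference of each gene kept its sign and moved by less than 1 SD between calves in all 43 alternatives run. This is a wide limit, since that SD was 0.38, 0.54 and 0.35 for *TXNIP*, *HIF3A* and *CIART*, against SE of 0.13, 0.19 and 0.13. Leaving out 1 of 15 calves could hardly exceed it. The log2 difference ran from -0.69 to -0.55 for *TXNIP* and from -0.996 to -0.823 for *HIF3A*. For *CIART*, where the pseudocount or a count model had most effect, it ran from -0.85 to -0.60. The number of all genes called, 0 in limma, was 26 in DESeq2 (16 higher and 10 lower in HI), 2 under scaling by library totals, 1 in series 78 without HI replicate 3, and 0 to 11 when single libraries were dropped. It was 15 in edgeR's quasi-likelihood test without HI replicate 3 and 15 in limma without HI replicates 2 and 3, both chosen after seeing the data. The number of the 3 genes called was 3 in DESeq2 and in these 2 added settings, and 0 to 3 when single libraries were dropped. The cause was not tested.

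For *TXNIP* with *HIF3A*, r across calves was 0.530 under library totals, 0.415 with title series as a covariate and 0.299 to 0.451 with a library left out. The adjusted permutation p was 0.00645 under totals and 0.0388 given series. For *HIF3A* with *CIART* these were 0.499, 0.408 and 0.231 to 0.433 (adjusted permutation p of 0.00967 and 0.0388 for the first pair of settings). The values under totals passed the threshold, but totals multiply every level in HI replicate 3 by its factor of 0.510. Totals were not run without that library, so covariation is not read from these values. Scaling by median-ratio size factors gave r of 0.405 and 0.387 for these pairs (adjusted permutation p of 0.0522 each). The p of 0.0388 is too small for both pairs of genes, since series was not removed again from the shuffled values. For *TXNIP* with *CIART* r was reversed to 0.186 under library totals and 0.195 in series 78 alone, and ran from -0.319 to -0.0620 with a library left out. Within diets, with a library left out, *TXNIP* with *HIF3A* ran from 0.0257 to 0.469 in HI and from 0.250 to 0.572 in MOD, *TXNIP* with *CIART* from -0.629 to 0.0437 and from -0.281 to -0.0365, and *HIF3A* with *CIART* from 0.165 to 0.475 and from -0.0711 to 0.505. Without the 2 farthest calves, chosen after seeing the data, *TXNIP* with *CIART* (-0.720) and *HIF3A* with *CIART* (0.668) passed in HI. Without HI replicate 2 the difference of r between diets for *TXNIP* with *CIART* turned from 0.0919 to -0.446 (adjusted permutation p = 0.313), and it was 0.0724 without HI replicate 3. The relations to depth and to dominant genes, and the count of 0 genes for title series in limma, kept their side without HI replicate 3.

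No paired or blocked analysis was possible because the labels do not give the blocks of age, bodyweight, sire and farm. Depth limits *CIART* most, with as few as 24 reads in a library.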
